A study of Mus musculus with 4 samples.

Results

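Transcript clusters that carry no gene symbol were examined in the CD45-negative cells of mouse lung, the fraction depleted of leukocytes by their common surface marker, 10 days after bleomycin or saline. The members were the rows of the deposited table whose ID begins with TC or TSUn and which the platform annotation does not list with a symbol. They numbered 33206 of 65956 transcript clusters, beside 32750 named ones. A cluster that this annotation does not list is unnamed here, which does not mean that it lies outside every gene. All samples came from C57BL/6 mice that received an intratracheal dose, 2 samples with phosphate-buffered saline (PBS) and 2 with bleomycin (BLM), a DNA-damaging drug that leads to lung fibrosis. Total RNA of each sample was put on 1 Affymetrix array. The labels give neither the age nor the sex of the animals, nor whether samples were pooled or each sample was a mouse of its own, and the p-values cover no more than the variation among the 4 samples at hand.

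A transcript cluster on such an array is a set of probes designed to exons that overlap on one strand. Clusters are built from curated genes and also from cDNA, EST and predicted transcripts, so many of them have no official symbol. Mammalian genomes are transcribed well beyond their protein-coding exons. Antisense transcripts, long noncoding RNAs, unspliced precursors and repeat-derived RNAs are all known sources of such signal, and many of them stay in the nucleus. The deposited values place an unnamed cluster only by the chromosome in its ID and by its number, so no sequence of a member could be shown.

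The arrays resembled one another in scale, with medians of 5.44 to 5.49 over all clusters. Levels below are log2 signals, and since each cluster has its own probes a level is not an abundance that can be set against another cluster's. The leukocyte marker Ptprc, the gene of CD45, lay at 6.30 and 6.21 with PBS against 7.19 and 7.20 with BLM, and it rose with BLM. Of 7 genes listed as leukocyte markers, 3 rose (Ptprc, Cd68 and Csf1r) and 1 fell (Lyz2). Lyz2 had a PBS mean of 19.35, against 7.88 or less for the others. Whether its signal came from leukocytes was not tested. Csf1r, at 0.60, passed no longer when 1 array was left out, whichever it was (adjusted p = 0.13 without BLM replicate 1). All 12 epithelial, endothelial and mesenchymal markers measured had a PBS mean of 9.82 or more. Of these, 3 of 4 mesenchymal markers rose, 3 of 4 epithelial markers fell and 1 of 4 endothelial markers rose. That endothelial call, of Cdh5, was lost without BLM replicate 1 (adjusted p = 0.0858) or PBS replicate 1 (0.0819), and the epithelial call of Cdh1 was lost in 3 of the 4 fits that left out an array. The part of these cell type markers in the results was not tested. Xist, the RNA of the inactive X chromosome, lay at 15.86 and 15.61 with PBS against 5.60 and 5.43 with BLM, so treatment cannot be told apart from whatever separates Xist-high from Xist-low samples. In bulk RNA, fewer cells of a type and less RNA per cell cannot be told apart either.

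Unnamed clusters were more often lower than higher after BLM, and named clusters the reverse. Of the 33206 unnamed clusters, 3210 fell (9.67%) and 1209 rose (3.64%), while 28787 did not pass. A call required an adjusted p under 0.05 in a limma fit over all 65956 clusters, with Benjamini-Hochberg adjustment over all of them. Over all clusters tested, 8.53% fell and 7.23% rose, 15.8% in all, against 13.3% of the unnamed ones. Among named clusters 18.3% passed, with 7.39% falling and 10.9% rising. The falls thus made up 72.6% of the calls among unnamed clusters and 40.5% among named clusters. No test was made of the difference between these shares, since clusters of one array are not replicates.

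The split kept its direction under other scalings, but the number of calls did not hold when an array was left out. The deposited values had already been equalised across arrays, so further scaling cannot show how the split depends on that step. The share of unnamed calls that were falls was 72.9% after median centring and 71.3% after cyclic loess. It was 73.3% to 74.8% without each array in turn. The total of 4419 calls dropped to 2106 without BLM replicate 1, 2538 without BLM replicate 2, 1936 without PBS replicate 1 and 2440 without PBS replicate 2. At least 2-fold differences were found in 1644 called members, 1247 lower and 397 higher. That is 4.95% of the members, close to the 5.03% of all clusters, so at all levels together the frequency of large differences did not set them apart. Among clusters with a mean signal of 8 or more, such differences were called in 21.4% of unnamed and 12.1% of named clusters. At 14 or more the shares were 10.6% and 9.22%. No test was made between these shares.

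The members that fell were brighter than most. Their median signal was 8.18 and 8.25 with PBS against 7.17 and 7.20 with BLM, with a median difference of -0.87 and 10th and 90th percentiles of -1.55 and -0.54. The members that rose had medians of 6.19 and 6.27 with PBS against 7.26 and 7.27 with BLM, a median difference of 0.79. Those that did not pass lay at 4.99 and 4.93 with PBS against 4.96 and 4.97 with BLM. Most of the set was therefore near the floor of the arrays. The median level was 5.14 for unnamed clusters and 6.01 for named clusters, and 12% of the unnamed clusters reached a level of 8, against 26.5% of the named ones. Differences of dim clusters are compressed toward 0, and the smallest difference called was 0.403 log2 units.

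The excess of falls grew with the level. Below a level of 4.5, 0.577% of 8844 unnamed clusters fell and 0.814% rose. At 6 to 7, 15.3% fell and 5.62% rose. At 8 to 10, 32.1% of 2252 fell and 9.33% rose. At 14 or more, 54.2% of 568 fell and 4.58% rose. Named clusters at 14 or more moved the other way on balance, with 15.4% of 564 falling and 21.1% rising. These brightest unnamed clusters had median signals of 17.08 and 16.88 with PBS against 16.31 and 16.42 with BLM, both BLM medians below both PBS medians. Their median difference of -0.54 was -0.38 after cyclic loess.

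Control probe sets on the same arrays divided in a similar manner, though not at the lowest levels. Their IDs are marked neg or pos, marks that Affymetrix uses on its gene arrays for probe sets to introns and to exons of broadly expressed genes. The 5222 neg controls had medians of 6.16 and 6.21 with PBS against 6.01 and 5.99 with BLM, and 58.2% of them differed by less than 0. The 1324 pos controls had medians of 10.07 and 10.20 with PBS against 10.36 and 10.51 with BLM, and 68.1% differed by more than 0. At a level of 8 to 10 the median difference was -0.30 for unnamed clusters and -0.26 for neg controls, against 0.09 for named clusters and 0.18 for pos controls. At 14 or more it was -0.54, -0.56, 0.11 and 0.44 in that order, with only 49 neg controls. Under 4.5 it was 0.02, -0.03, 0.04 and 0.02. The part of this shift of the neg controls in the falls of the unnamed clusters was not tested.

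**Figure D1:**
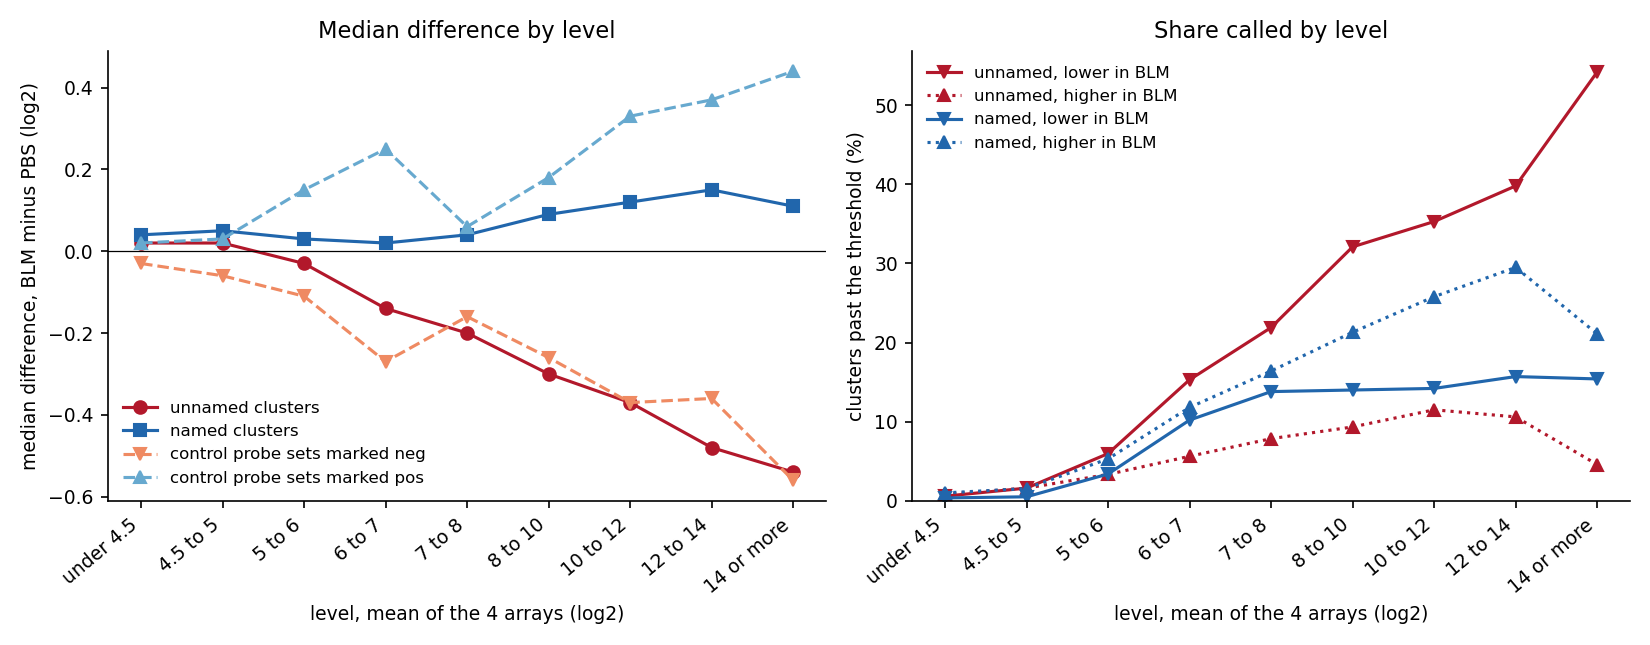
Left, median log2 difference of BLM minus PBS (n = 2 arrays per group) in 9 bins of level, the mean signal of the 4 arrays, for unnamed clusters, named clusters and control probe sets marked neg or pos. Right, percent of unnamed and named clusters past the threshold in each bin; falls among unnamed clusters reach 54.2% at a level of 14 or more, while rises stay at or below 11.5%.

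Named noncoding classes gave shares on either side of the members' own. Of 30604 clusters with 1 symbol, 30294 matched a gene class in the RefSeq gene table (GRCm38.p6). Among 3241 long noncoding RNA clusters, 117 fell and 43 rose, so falls were 73.1% of calls, close to the 72.6% of the unnamed clusters, but only 4.94% of them passed. Among 19293 protein-coding clusters, 1688 fell (8.75%) and 2697 rose (14%), and falls were 38.5% of calls. Over all clusters, 8.53% fell and 7.23% rose. Among 927 clusters of small nuclear RNA, the RNA of the splicing machinery, 93 fell (10%) and 12 rose (1.29%). Small nucleolar RNA clusters, which guide modification of ribosomal RNA, fell in 61 of 959 cases (6.36%) and rose in 23 (2.4%). Both shares were below those over all clusters. Ribosomal RNA clusters, 88 in all, fell in 60 cases and rose in 1, but they held only 24 distinct sets of values, of which 5 fell and 1 rose. Of the small nuclear RNA clusters, 850 sets of values were distinct, and 84 of these fell. Pseudogene clusters, 4285 in all, moved the other way, with 140 falling (3.27%) and 440 rising (10.3%).

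A list of well-studied long noncoding RNA genes was set beside the unnamed clusters, and 22 of its 47 symbols had a cluster naming them alone. The other symbols were not looked for in clusters that name several genes. Of the 22, 6 fell, 4 rose and 12 did not pass, with a median difference of 0.10. Over all clusters 15.8% passed, and among named clusters at a level of 8 or more 37.7%. The listed genes vary in level, and no test was made of their share. Some calls of each direction were lost in fits that left out 1 array. Neat1, the scaffold of nuclear paraspeckles, lay at 13.52 and 13.66 with PBS against 12.05 and 12.04 with BLM, a fall of -1.55 (SE 0.11, adjusted p = 0.00193). Snhg11, a small nucleolar RNA host gene, showed the deepest fall of the list, -2.08 (SE 0.12). Malat1, a nuclear speckle RNA singled out after its values were seen, fell from 17.90 and 17.83 to 16.88 and 16.81. The greatest rises were those of Snhg18, at 1.80 (SE 0.18), and of Morrbid, a regulator of myeloid cell survival, at 1.21 (SE 0.10).

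Nearly all members carry a TC ID. Only 21 of the 186 TSUn clusters, whose ID gives no chromosome, were unnamed, and 1 of these 21 passed (4.76%). TSUnmapped00000061.mm.1 lay at 4.31 and 4.28 with PBS against 4.74 and 4.73 with BLM, a rise of 0.44 (SE 0.10, adjusted p = 0.0394, limma). The pairs did not overlap, but the signal is near the floor, and the call was lost without any 1 of the arrays, at adjusted p of 0.109 to 0.174. Of the 21, 19 were dim, with levels of 4.01 to 5.86 and differences of -0.30 to 0.44. The other 2 were among the brightest signals of the arrays. One lay at 17.36 and 17.41 with PBS and 17.37 and 17.38 with BLM, and the other at 18.93 and 19.02 against 19.21 and 19.23. Neither passed. Of the 165 named TSUn clusters, which had a median level of 6.4, 46 fell and 11 rose, and no test was made between the named and the unnamed ones.

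The TC members outside the autosomes were few. Among 19 unnamed clusters of the mitochondrial genome, 15 fell and none rose (4 others did not pass), with medians of 11.97 and 11.89 with PBS against 9.89 and 10.21 with BLM. Named mitochondrial clusters fell in 9 of 11 cases. Of 97 members on unplaced or random contigs, 18 fell and 2 rose. The X chromosome held 1378 members, of which 141 fell (10.2%) and 61 rose (4.43%). The Y chromosome held 301, of which 8 fell (2.66%) and 14 rose (4.65%). Over all unnamed clusters 9.67% fell and 3.64% rose, and over all clusters 8.53% and 7.23%. Of 2020 named X clusters, 84 fell and 151 rose, and of 258 named Y clusters, none fell and 30 rose. Whether calls on the sex chromosomes depend on the Xist difference was not tested.

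The 31390 autosomal members, 3028 lower and 1131 higher, gave the same split on each chromosome. All 19 autosomes had more unnamed clusters lower than higher, and all 19 had more named clusters higher than lower. The first of these counts was 19 under every alternative run. The share of members called ranged from 11.2% on chromosome 10 to 15.2% on chromosome 4. Falls were most frequent on chromosome 6, with 212 of 1836 members (11.5%), and least on chromosome 18, with 80 of 1026 (7.8%). Rises ran from 2.56% on chromosome 19, with 22 of 860, to 4.97% on chromosome 18, with 51 of 1026. As a share of calls, falls stood between 61.1% on chromosome 18 and 79.4% on chromosome 19. The median level of the members lay between 5.02 and 5.33 on every autosome, and whether the autosomes differ in their shares was not tested.

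**Figure D2:**
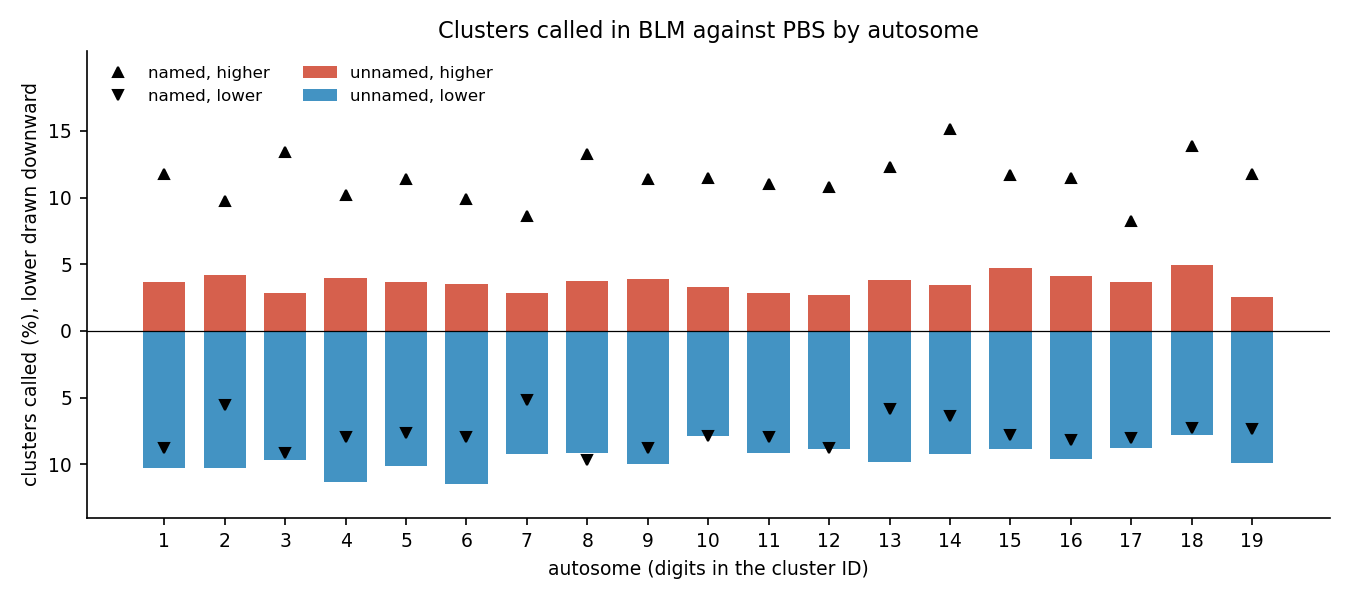
Percent of clusters called higher (upward) or lower (downward) in BLM for each autosome, bars for unnamed clusters and triangles for named clusters. Unnamed falls range from 7.8% to 11.5% and unnamed rises from 2.56% to 4.97%, and each downward bar is longer than the upward bar of its chromosome.

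The greatest rise among unnamed clusters was on chromosome 5. TC0500001025.mm.1 lay at 7.54 and 7.51 with PBS against 16.65 and 16.79 with BLM, a difference of 9.20 (SE 0.11, adjusted p = 0.000104). The arrays of each group were close to each other, and the groups lay far apart. The next was TC0400002814.mm.1 on chromosome 4, at 4.60 and 5.30 with PBS and 9.55 and 9.92 with BLM, a difference of 4.78 (SE 0.26, adjusted p = 0.00135). Its PBS values were near the floor.

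The deepest fall was on chromosome 7. TC0700000431.mm.1 lay at 14.07 and 14.02 with PBS against 8.93 and 9.04 with BLM, a difference of -5.06 (SE 0.10, adjusted p = 0.000547). The following one, TC0500001214.mm.1 on chromosome 5, lay at 9.73 and 9.78 with PBS and at 3.83 and 6.84 with BLM, a difference of -4.42 (SE 0.93, adjusted p = 0.0341). Its BLM arrays stood further apart than those of any other member described, and leaving out BLM replicate 1 gave -2.92 and leaving out BLM replicate 2 gave -5.92, so its place among the deepest falls rests on single arrays. The call was lost without PBS replicate 1 or PBS replicate 2 (adjusted p = 0.127 in both cases).

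Each autosome held members with large differences. The greatest rise on a chromosome ranged from 1.5, on chromosome 19, to the 9.20 of chromosome 5, with a median of 2.71. The deepest fall ranged from -2.19, on chromosome 16, to -5.06, with a median of -3.25. On chromosome 2 the cluster with the greatest rise was bright throughout, at 14.28 and 14.02 with PBS and 17.89 and 17.53 with BLM. On chromosome 18 the deepest fall went from 14.61 and 14.72 to 11.52 and 11.58. On chromosome 12 it went from 14.85 and 14.86 to 12.46 and 12.21. The PBS and BLM pairs did not overlap for any of these clusters. They were picked as called extremes, so this adds no support of its own.

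**Figure D3:**
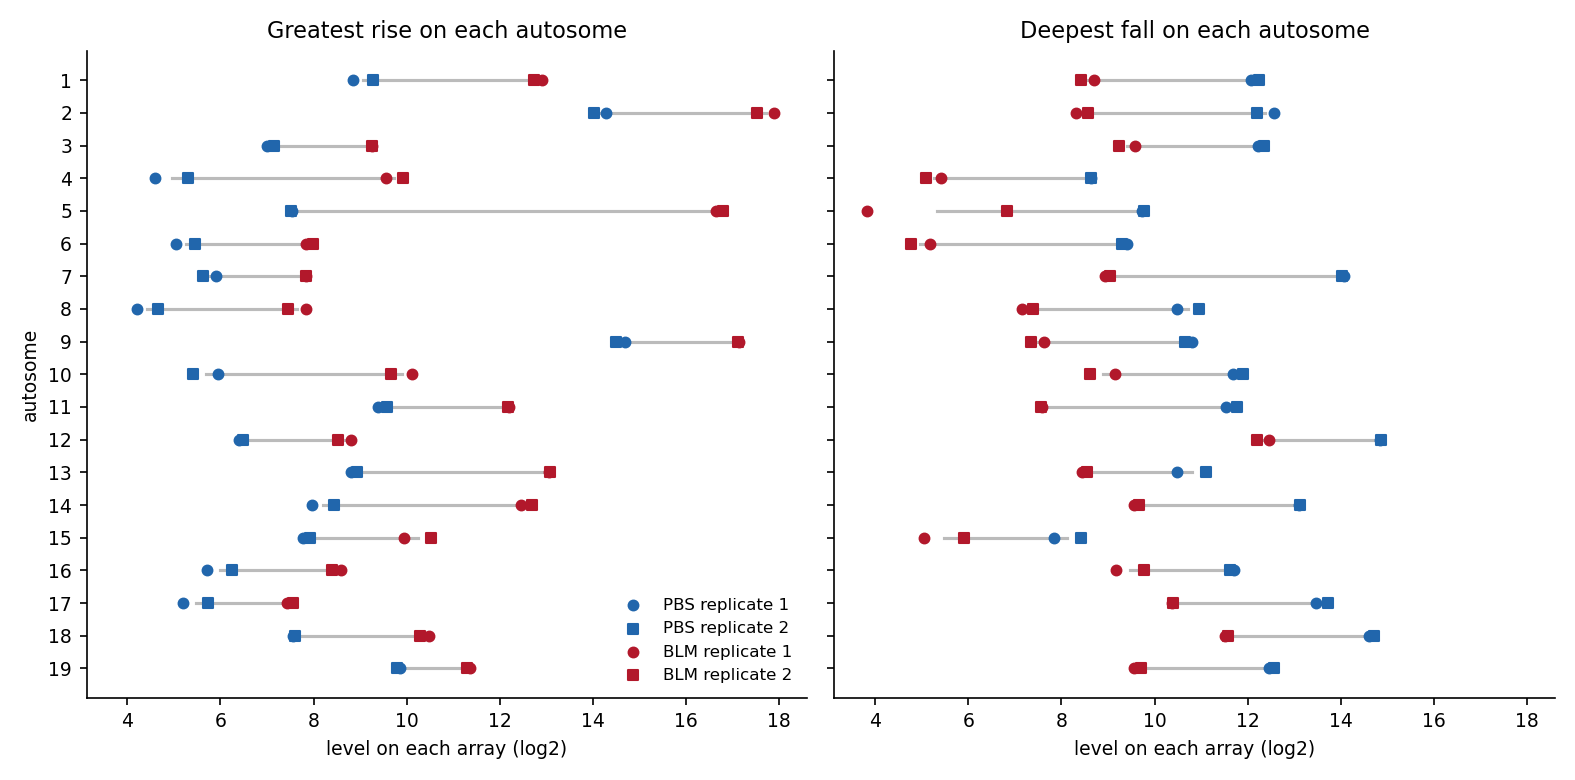
Level on each of the 4 arrays (log2) for the unnamed cluster with the greatest rise (left) and the deepest fall (right) on each autosome, among those called; blue points are PBS, red points BLM, and grey lines join the group means. Arrays of a group lie close together in most cases, the BLM pair of the chromosome 5 fall (3.83 and 6.84) being the widest.

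The numbers in the TC IDs follow the genome, which allowed each member to be set beside its named neighbours. Among 28042 named autosomal clusters found in the RefSeq table, the next number had the higher start position in 99% of 28023 pairs, and 99% of 17279 neighbouring pairs with a known strand shared it. Whether a member lies within the gene numbered before it is not given by these files, and no member was assigned to a gene. The neighbours counted here, and those of the extremes and runs below, are clusters with 1 gene symbol. A cluster naming several genes was not considered, so it could lie nearer. Among members with a 1-symbol cluster immediately before them, those that rose followed a gene that also rose in 33% of 448 cases. Over all autosomal clusters with 1 symbol, 11.1% rose and 7.55% fell. Members that fell followed a gene that also fell in 25% of 1260 cases. Of the named clusters immediately after a member, 17.1% of 427 rose where the member rose and 14% of 1080 fell where it fell. The difference between the sides was not tested.

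Differences of neighbouring clusters were alike over a few positions. Between adjacent unnamed clusters that both had a level of 7 or more, Pearson's r of the log2 differences was 0.58 over 1282 pairs, against 0.19 over 2735 adjacent named pairs. It was 0.28 at 5 positions apart and 0.00 at 50. An unnamed cluster just after a named one gave 0.50 over 1598 pairs, and one just before a named one gave 0.17 over 1115. These coefficients are descriptions across pairs on the same 4 arrays, and neighbouring clusters may share transcripts or probes of like sequence. Over all pairs without a limit on level, the adjacent unnamed value was 0.34 over 18145 pairs.

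**Figure D4:**
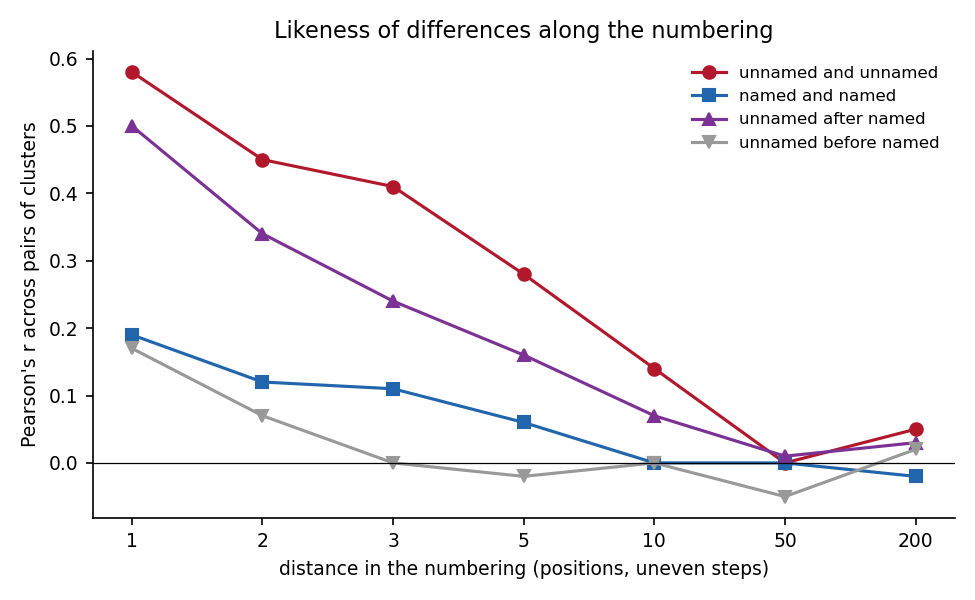
Pearson's r of the log2 differences (BLM minus PBS) between 2 autosomal clusters, both at a level of 7 or more, at 1 to 200 positions apart in the order of their numbers, for 4 kinds of pair. Adjacent unnamed pairs start at 0.58 and unnamed clusters after a named one at 0.50, and all kinds lie between -0.05 and 0.05 at 50 positions or more.

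The most pronounced neighbourhood was that of Tnc, the gene of the matrix glycoprotein tenascin C, which is induced in wounds and fibrosis. It was singled out because 4 of the 8 greatest rises among autosomal members carry the next 4 numbers. Tnc itself went from 7.34 and 7.37 to 13.84 and 14.03. The unnamed cluster after it went from 6.32 and 6.24 to 10.31 and 10.73, a rise of 4.24 (SE 0.16). The second of the 4 is the TC0400002814.mm.1 described above. The third went from 5.92 and 5.74 to 10.00 and 9.99 and the last from 4.28 and 4.69 to 8.57 and 8.71, rises of 4.16 (SE 0.11) and 4.15 (SE 0.16). The named cluster beyond them, Gm11217, stood at 0.13 and did not pass.

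Several other extreme members followed a gene that moved with them. The deepest fall on chromosome 7 was numbered right after Cyp2b10, a drug-metabolising cytochrome P450 gene that fell by 4.21. Members of this P450 family are close in sequence, so which copy a probe reflects is uncertain. On chromosome 1 the deepest fall, from 12.08 and 12.24 to 8.69 and 8.42, came right after Aox3, an aldehyde oxidase gene at -4.10. On chromosome 14 it came after Rgcc, a cell cycle regulator gene at -2.26, on chromosome 8 after Hpgd, the gene of a prostaglandin-degrading enzyme, at -1.73, and on chromosome 19 after Aldh1a1, a retinaldehyde dehydrogenase gene, at -1.52.

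Among the rises, the one of chromosome 13, from 8.80 and 8.94 to 13.05 and 13.07, came right after Inhba, the gene of the activin A subunit. Inhba rose by 1.61, a call lost without PBS replicate 1 (adjusted p = 0.0688). The rise of chromosome 6 came after Olr1, a scavenger receptor gene at 3.14, and that of chromosome 18 after Chsy3, a chondroitin synthase gene at 1.19. Other extremes stood beside genes that did not pass or that moved the other way. The rise of chromosome 10, from 5.95 and 5.41 to 10.12 and 9.67, followed the neutrophil elastase gene Elane, at 0.21, and the fall of chromosome 11, from 11.53 and 11.76 to 7.59 and 7.57, followed Ykt6, a vesicle fusion gene, at 0.32. The fall of chromosome 18 came 6 numbers after Ablim3, an actin-binding protein gene that rose by 0.92. The rise of chromosome 11 came 3 numbers after Hnrnph1, a splicing factor gene at -0.47 (adjusted p = 0.0468, lost without any 1 array and with the replicate block). Over all 38 extremes, the nearest 1-symbol cluster before the member was called in its direction in 19 cases. It was called in the other direction in 2 and not at all in 17. The nearest one after the member was called in its direction in 5, in the other direction in 3 and not at all in 30. By comparison, 11.1% of all autosomal clusters with 1 symbol rose and 7.55% fell. The nearest 1-symbol clusters on both sides of both chromosome 5 extremes, the rise of 9.20 included, did not pass.

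Called members also lay in unbroken runs. In 29 places on 15 autosomes, 5 or more consecutive numbers were all unnamed and all called in one direction, 20 runs lower and 9 higher, with 176 clusters together. The number of such runs was 15 without BLM replicate 1, 16 without BLM replicate 2, 13 without PBS replicate 1 and 12 without PBS replicate 2, and the 9 upward ones numbered 2, 3, 3 and 0. Most called autosomal members, 2983 of 4159, had no called unnamed neighbour moving the same way. In 14 runs the number just before the run belonged to a 1-symbol cluster, and in 11 of these that gene had moved with the run. The number just after was a 1-symbol cluster in 14 runs also, and in 2 of them it had moved likewise. Among all autosomal clusters with 1 symbol, 11.1% rose and 7.55% fell. Calls of some genes just before a run, such as Enah and Nr3c2, were lost in fits that left out 1 array. No test was made of these counts.

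The longest runs had 9 clusters each. On chromosome 10, 9 clusters numbered after Ank3, the gene of the membrane adaptor ankyrin-G, fell by values from -2.45 to -0.43. Their median signals were 9.45 and 9.63 with PBS and 8.14 and 8.13 with BLM. Ank3 fell by 0.92, and the gene after the run, Ccdc6, rose by 0.56, which passed under no fit that left out 1 array (adjusted p = 0.108 without BLM replicate 1). On chromosome 2, 9 clusters after Ralgapa2, a subunit gene of a Ral GTPase-activating complex, differed by -2.04 to -0.81, from medians of 9.05 and 8.84 to 7.52 and 7.36, while Ralgapa2 fell by 2.28. On chromosome 16, 7 clusters after the cell adhesion gene Alcam, at -1.01, differed by -1.90 to -0.97, from medians of 10.39 and 10.10 to 8.68 and 8.65.

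**Figure D5:**
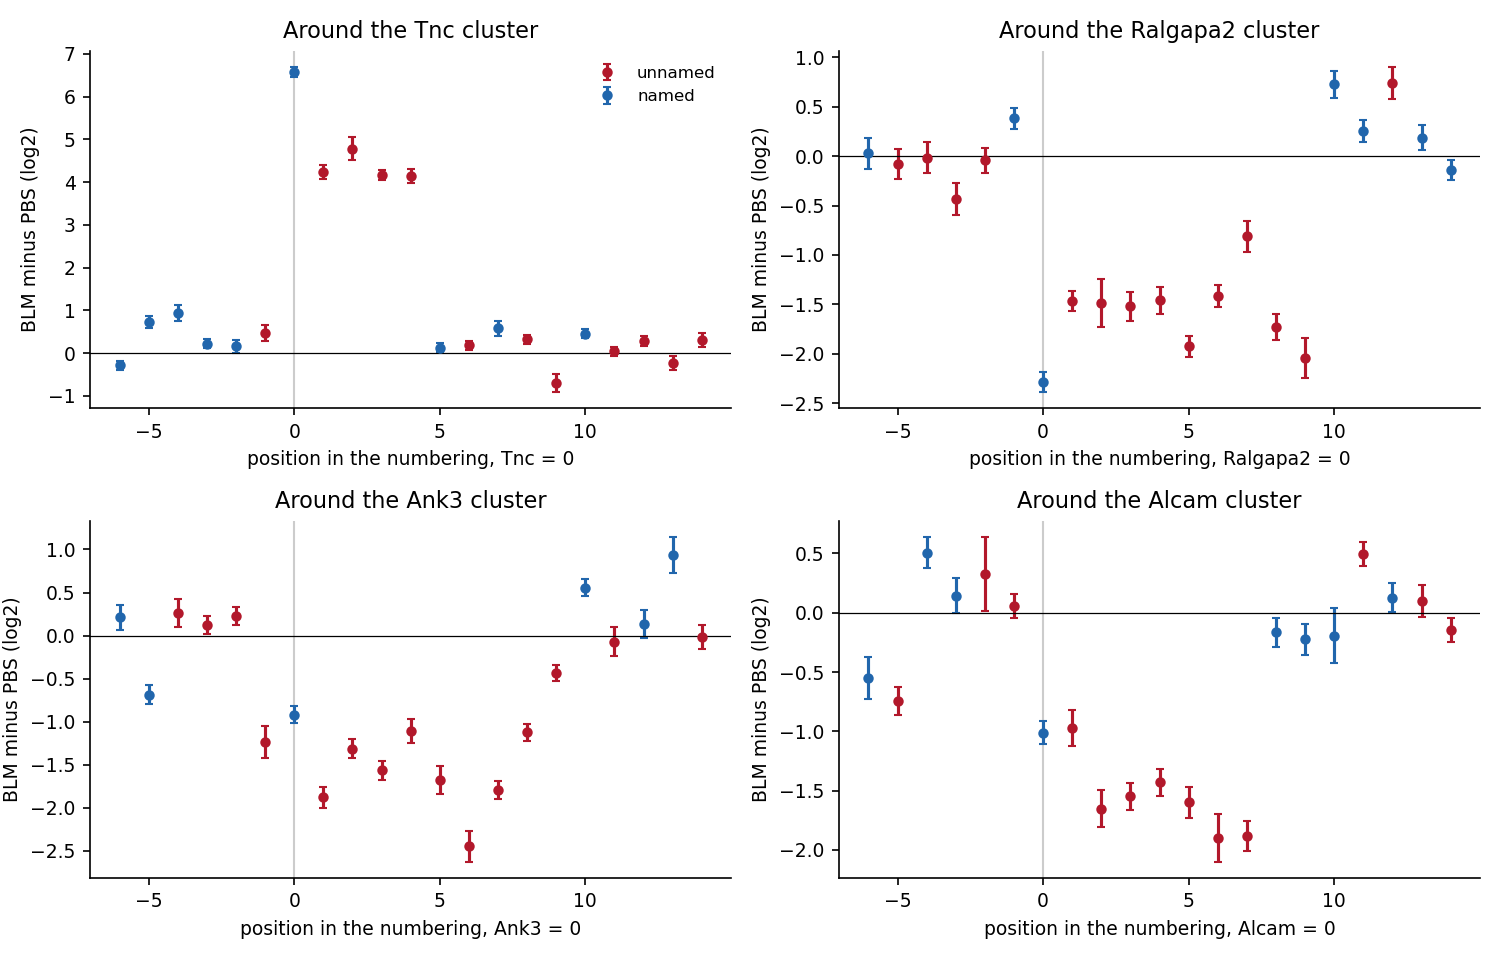
Log2 difference of BLM minus PBS with its SE (limma, n = 2 arrays per group) for clusters around Tnc, Ralgapa2, Ank3 and Alcam, in the order of their numbers with the named gene at 0; red points are unnamed and blue points named clusters. Beside each gene a block of unnamed clusters moves with it and ends within 10 positions; the vertical scales differ.

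Shorter runs of falls came after the insulin-like growth factor receptor gene Igf1r (6 clusters, -1.52 to -0.88), after the transcription factor gene Mecom (5 clusters, -1.90 to -1.27) and after Rfx3, a transcription factor gene of ciliated cells (5 clusters, -1.05 to -0.61). Igf1r fell by 0.83, Mecom by 0.87 and Rfx3 by 0.97. The largest differences within a run were on chromosome 6, where 5 clusters before the tetraspanin gene Tspan11 differed by -4.38 to -2.45 and Tspan11 by -1.59. Among the upward runs, 6 clusters after Pdzrn3, the gene of a ubiquitin ligase, rose by 0.52 to 2.31, from medians of 6.86 and 6.86 to 8.70 and 8.58, and Pdzrn3 rose by 1.32. On chromosome 8, neighbouring runs of 5 and 8 clusters rose by 0.88 to 3.21 and by 0.87 to 2.35. The nearest 1-symbol clusters on either side did not pass.

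Some members cannot be told apart by their values. Of the unnamed clusters, 818 (2.46%), in 196 sets, had exactly the same 4 values as at least 1 other member. Of these 818, 299 fell and 10 rose, where rows of 1 set repeat the same values. Over all unnamed clusters 9.67% fell and 3.64% rose, and over all clusters 8.53% and 7.23%. The largest set had 63 clusters on 16 autosomes, all at 10.61 and 10.51 with PBS and 8.93 and 9.61 with BLM, a fall of -1.29 (adjusted p = 0.0228). Such clusters count as separate rows above. With 1 cluster kept of each set, 2963 members fell and 1208 rose, so falls were 71% of calls.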

How the data were processed

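Per the submitters' processing notes, the authors ran RMA in Expression Console, the Affymetrix program, and deposited its output on a log2 scale for each cluster on each array. RMA subtracts background, equalises array distributions and combines the probes of a cluster. No software version or genome build is given in the sources used here. Arrays have no read depth, and their number limits the precision.

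All 65956 TC and TSUn rows were fitted by lmFit and eBayes of limma 3.58.1 under R 4.3.3 (two-sided, 2 residual and 3.29 prior degrees of freedom), with Benjamini-Hochberg adjustment over all of them. The 6732 control rows were left out of the fit. The median SE of a difference was 0.121. The code of the fit was tried on simulated data with independent noise and planted differences. Clusters here are not independent, so that trial does not show that the calls are sound. A gene symbol repeated within an entry was counted once.

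The members and lists were chosen with earlier results of these data known. IDs are given for the 2 greatest rises and 2 deepest falls among called autosomal members and for the called TSUn member. Others are described by chromosome, as each autosome's extremes, or as runs of at least 5. Genes are named as neighbours in the numbering or from a list of long noncoding RNAs, or as markers. Neighbours of the chromosome 5 extremes are counted but not named here. Alternatives were a replicate block, leaving out each array, a filter on dim clusters, a trended robust prior, median centring, cyclic loess, leaving out X and Y, 1 cluster per set of identical values, and a 2-fold minimum.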

Additional observations from a re-analysis of the deposited data

How the results depend on the processing

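The excess of falls among unnamed clusters kept its direction under every alternative run, at 71% to 75.9% of their calls, and that of rises among named clusters likewise. With the replicate number as a block, 3759 unnamed clusters passed, 991 higher and 2768 lower. The labels say nothing of what the numbers share, and same-numbered deviations correlated at 0.0076 only. Without each array in turn the totals were 1936 to 2538, with 487 to 677 higher and 1449 to 1861 lower, and 1839 to 2368 on autosomes. Fewer samples enter those fits. With a 2-fold minimum they were 1644, 397 higher and 1247 lower, and 1532 on autosomes, and 6 of the listed noncoding RNA genes passed in place of 10. The single TSUn call gave 0 with the replicate block, under the filter on dim clusters, with a 2-fold minimum and without any 1 array (0 to 0), and 2 with cyclic loess; the cause was not tested. For the filter and the 2-fold minimum, the cause of the 0 can be read from the settings. The filter left out this cluster, at a level of 4.52, and the rise of 0.44 is below a 2-fold difference. Neither 0 therefore bears on the stability of the call. At an unadjusted p under 0.05 the TSUn members numbered 3. The members followed through the alternatives were the called TSUn member and autosomal members picked for their large differences. They do not speak for the stability of the other calls. Of 44 members followed through the alternatives, 42 kept their calls throughout.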
